A study of Mus musculus with 4 samples.

Results

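The genes of the Myc family were examined for binding of RAD21, a core subunit of cohesin, in mouse embryonic stem cells (ESCs) and in embryoid bodies (EBs). The family was taken as 4 of the 37310 annotated genes, namely Myc, its noncoding neighbour Pvt1, Mycn and Mycl1. Every deposited RAD21 peak within 200 kb of 1 of these gene bodies was counted as a site of the family. This gave 19 of the 15311 ESC sites and 4 of the 11022 EB sites, which made 20 distinct sites because 3 overlapped between the lists. Myc and Pvt1 share their surroundings and are treated as 1 locus.

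The ESCs were feeder-free R1/E cells at day 0 of differentiation, and the EBs were aggregates of differentiating cells derived from R1/E ESCs at day 12. Cells of both groups carried a bacterial artificial chromosome with Rad21 fused to GFP, and cells with stable integration had been sorted for GFP. RAD21 was precipitated with a goat antibody against GFP, so the signal is that of the tagged protein. Controls of both cell types were labelled as goat IgG isotype precipitations, although their descriptions name input DNA. There was 1 RAD21 and 1 IgG library per cell type, 4 libraries in all and no replicates. On autosomes the RAD21 libraries held 13714772 reads in ESCs and 7740389 in EBs, and the IgG libraries 12602155 and 6929293. Every ratio below therefore compares libraries, and each exact 95% interval (Clopper-Pearson) covers counting error only.

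MYC, MYCN and MYCL are transcription factors of the basic helix-loop-helix leucine zipper class. They pair with MAX to bind E-box sequences and promote growth and proliferation, and MYC and MYCN are known for their part in the self-renewal of ESCs. Pvt1 encodes a long noncoding RNA downstream of Myc, in a gene-poor stretch with many distal regulatory elements. Cohesin is loaded onto chromosomes as a ring, is halted at many sites occupied by the zinc finger protein CTCF and takes part there in the formation of DNA loops. An element bound by CTCF just upstream of the Myc promoters is known as the Myc insulator element.

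The region of the Myc insulator held the ESC site with the highest score of the family, and a site was listed there in both cell types. Its ESC peak lay at chr15:61814508-61815429 (mm9), in intergenic sequence, with its summit 1.93 kb upstream of the Myc start. The 200 bases around this summit are shown because they carry the match to CTCF that scored highest in the Myc and Pvt1 locus. The sequence is the plus strand of mm9, chr15:61814917-61815116, and capitals mark the 20 bases that matched the CTCF weight matrix, on the plus strand.

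Myc insulator site: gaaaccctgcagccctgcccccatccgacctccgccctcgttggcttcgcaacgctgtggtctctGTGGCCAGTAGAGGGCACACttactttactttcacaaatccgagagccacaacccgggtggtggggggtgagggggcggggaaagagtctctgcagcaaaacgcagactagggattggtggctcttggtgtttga

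The other sites of the family with a CTCF match at the stricter threshold are shown for comparison, each with 15 flanking bases per side and read on the strand of the match. The threshold was set so that 1e-05 of positions in random genome windows passed it. Coordinates are mm9, and capitals mark the match.

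Mycn, 160.12 kb downstream of the start, chr12:12788512-12788561, plus strand: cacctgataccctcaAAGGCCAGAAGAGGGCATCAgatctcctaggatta
Mycl1, 84.85 kb upstream of the start, chr4:122587969-122588018, plus strand: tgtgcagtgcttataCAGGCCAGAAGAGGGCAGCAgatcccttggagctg
Mycl1, 51.06 kb upstream of the start, chr4:122621796-122621845, plus strand: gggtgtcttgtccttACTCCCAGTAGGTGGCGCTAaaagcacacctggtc
Mycl1, 0.11 kb upstream of the start, chr4:122672705-122672754, plus strand: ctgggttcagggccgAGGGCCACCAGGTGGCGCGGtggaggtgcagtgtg
Mycl1, 87.46 kb downstream of the start, chr4:122760289-122760338, minus strand: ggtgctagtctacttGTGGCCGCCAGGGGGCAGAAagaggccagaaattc
Mycl1, 159.58 kb downstream of the start, chr4:122832424-122832473, plus strand: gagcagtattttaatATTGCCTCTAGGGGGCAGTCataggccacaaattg

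The spread of the sites over the loci differed between the lists. Mycn had 9 ESC sites within 200 kb, more than 91.8% of the 21418 autosomal protein-coding genes, but only 1 EB site. The median over protein-coding genes was 4 ESC and 3 EB sites. Mycl1 had 6 ESC and 2 EB sites, and Myc and Pvt1 had 4 ESC and 1 EB sites. In the EB list 72.0% of protein-coding genes had more sites than Myc or Mycn, and 52.0% had more than Mycl1.

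**Figure D1:**
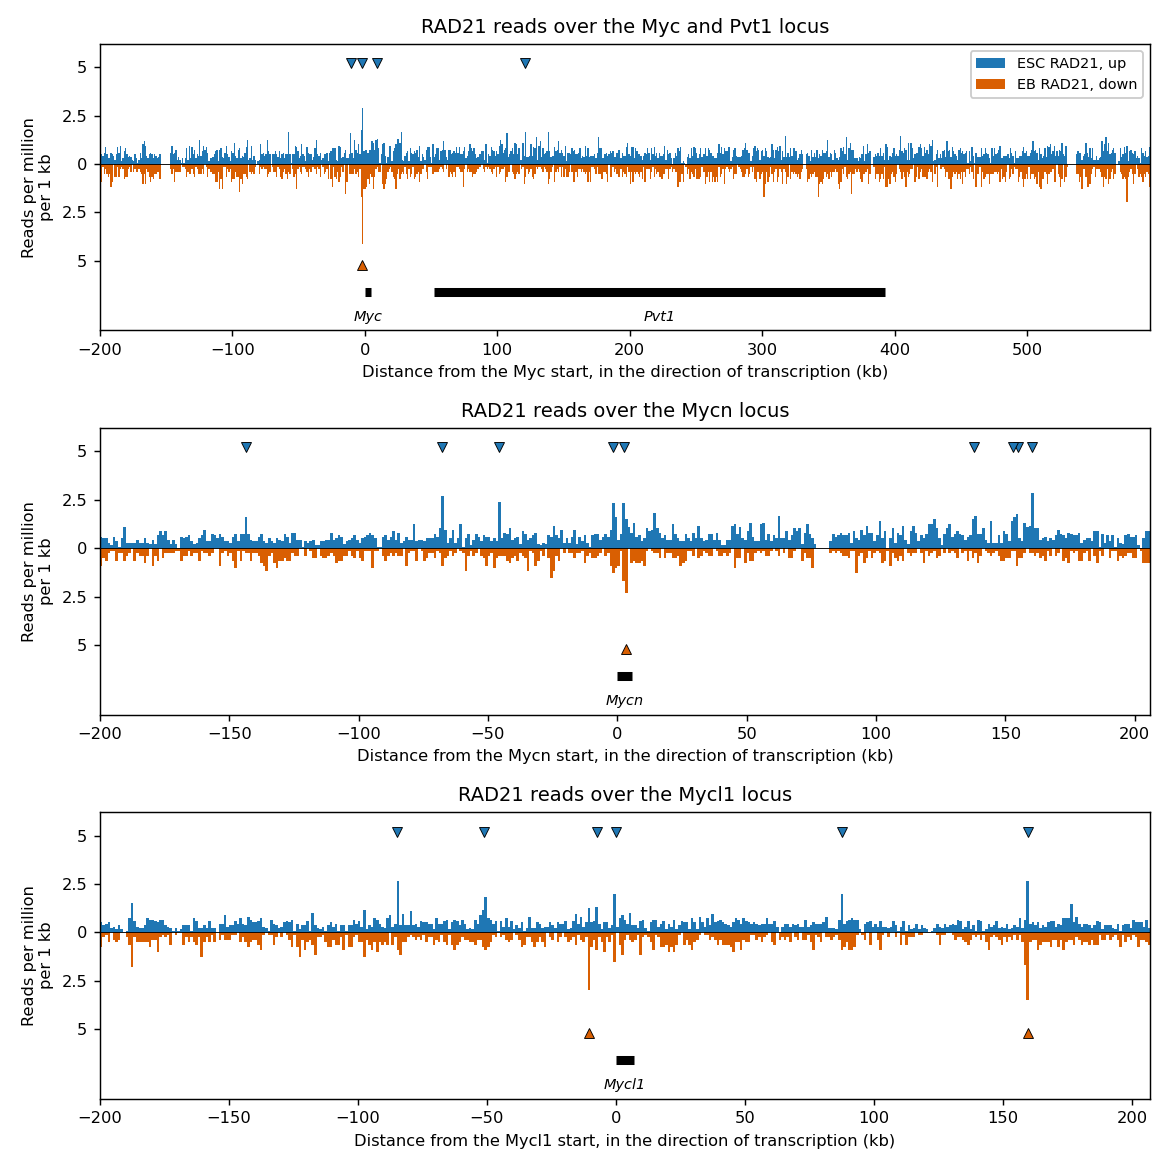
RAD21 reads per 1000000 autosomal reads in 1 kb bins over the Myc and Pvt1, Mycn and Mycl1 loci, for ESCs (blue, up) and EBs (orange, down), against the distance from the gene start in kb. Triangles mark the summits of the 19 ESC and 4 EB sites and black bars the genes. At Mycn 9 ESC summits face 1 EB summit.

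Few of the family's ESC sites were listed again in EBs. Of the 19 ESC sites, 3 overlapped an EB site, beside 48.5% of all ESC sites. Of the 4 EB sites, 3 overlapped an ESC site, beside 67.8% of all EB sites. There was 1 shared site at each locus. All 3 were among the 8 family ESC sites with a peak score of at least 100, where 66.9% of all ESC sites were shared. None of the 11 family sites with a lower score was shared, beside 33.1% of all such ESC sites. The median score of the family's ESC sites was 85.5, and that of all autosomal ESC sites was 94.5. The deposited score is -10 times the log10 of the peak's p-value and ranks sites within a list only.

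Within 250 bp of the summits there were fewer RAD21 reads in EBs than in ESCs, scaled to the autosomal reads of each library, at 18 of the 20 distinct sites. The interval of the EB to ESC ratio lay below 1 at 10 of the 20 sites, beside 18.4% of all autosomal sites. It lay above 1 at 1 site, beside 20.2% of all autosomal sites, and spanned 1 at 9 sites. The median log2 ratio, with 1 read added to each count, was -1.36 (95% interval of the median -1.98 to -0.37), and the median over all 18504 autosomal sites was 0.03. This interval came from the ranked values of the 20 sites and treats them as independent, though many are neighbours in 1 locus. With 1 library per group it measures no error of a difference between the cell types. Since 16 of the 20 sites had been listed in ESCs alone, their direction was largely set by the listing. Among these 16 ESC-only sites, 10 were higher in ESCs, beside 42.0% of all ESC-only sites, and their median log2 ratio was -1.70 beside -1.11. At the 3 shared sites the median log2 ratio was -0.31, and that of all shared sites was 0.38.

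Reads were also summed by locus, and whether the intervals of the loci overlapped depended on the scaling and on the sites summed. The direction of the summed ratios was largely set by the listing, since most of the sites summed had been listed in ESCs alone. These were 8 of the 9 ESC sites at Mycn, 3 of the 4 at Myc and Pvt1 and 5 of the 6 at Mycl1. Summed over its 9 ESC sites, Mycn had 222 RAD21 reads in ESCs and 33 in EBs, a scaled EB to ESC ratio of 0.263 (0.177 to 0.381). At the 4 ESC sites of Myc and Pvt1 the reads were 92 and 24, a ratio of 0.462 (0.282 to 0.731). At the 6 ESC sites of Mycl1 they were 126 and 50, a ratio of 0.703 (0.496 to 0.983). The intervals of Mycn and Mycl1 did not overlap. Scaled by the RAD21 reads of each locus outside its sites they did, with ratios of 0.406 (0.273 to 0.588) at Mycn, 0.529 (0.322 to 0.836) at Myc and Pvt1 and 0.728 (0.514 to 1.02) at Mycl1. In the IgG libraries the same sums gave EB to ESC ratios of 0.80 at Mycn, 1.82 at Myc and Pvt1 and 0.979 at Mycl1, and all 3 intervals spanned 1. Over the ESC-only sites alone, scaled to autosomal reads, the RAD21 ratio was 0.212 (0.131 to 0.328) at Mycn. It was 0.181 (0.0562 to 0.451) at Myc and Pvt1 and 0.511 (0.323 to 0.786) at Mycl1, and these intervals overlapped. A ratio summed over all ESC sites of the genome was not formed. EBs hold several cell types, and fewer cells with RAD21 at a site cannot be told apart from less RAD21 per cell.

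Base composition moved with the ratios between the libraries. In random windows away from sites, the EB to ESC ratio of RAD21 reads was between 0.579 and 0.985 at the GC contents of the family's sites, and that of IgG reads between 0.616 and 0.996. Divided by the ratio of random windows of like GC content, 6 sites kept an interval below 1, and all 6 lay near Mycn. The 4 that did not were the 3 ESC-only sites of Myc and Pvt1 and the site 84.85 kb upstream of Mycl1. The single site higher in EBs kept its interval above 1, but not when the libraries were scaled to a median ratio of 1 at all shared sites, where its ratio was 1.84. By that scaling 13 sites were higher in ESCs. The share of all autosomal sites called was not formed after either scaling, so these counts have no background beside them.

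**Figure D2:**
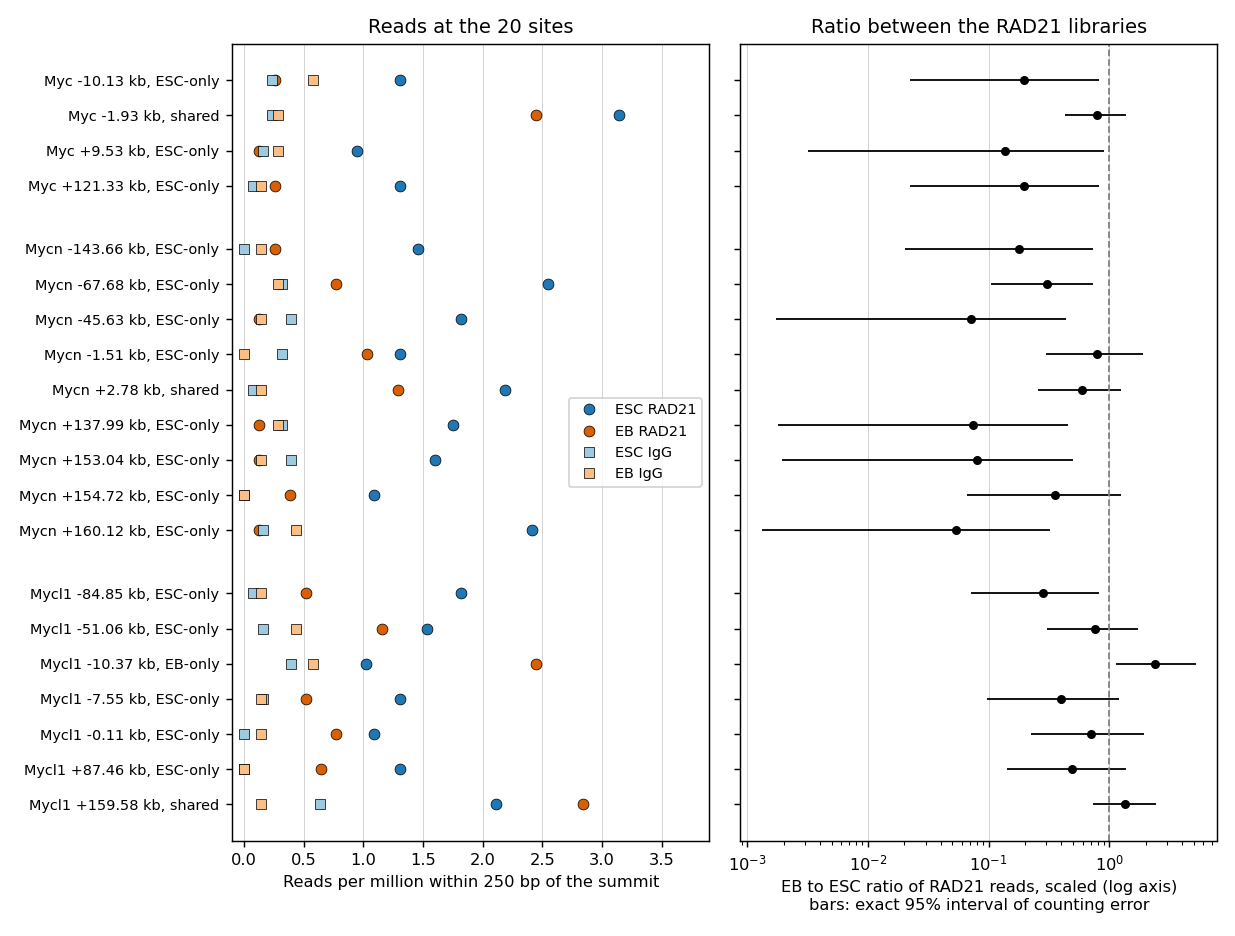
Left, reads per 1000000 autosomal reads within 250 bp of the summit at the 20 sites, for the RAD21 libraries (circles) and IgG libraries (squares) of ESCs (blue) and EBs (orange). Right, the EB to ESC ratio of RAD21 reads on a log axis with its exact 95% interval. 10 intervals lie below 1 (dashed), 1 above it and 9 across it.

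Depth was a limit of the comparison, since the EB RAD21 library held fewer reads. When the ESC libraries were thinned to the EB read numbers in 3 draws, 11, 11 and 12 of the 19 ESC sites passed a Poisson threshold of 1e-05, and 8 passed in every draw. In the first draw 68.6% of all autosomal ESC sites passed. In the EB reads, none of the 16 ESC-only sites passed the same threshold, beside 6.56% of all ESC-only sites. Only the site 1.51 kb upstream of Mycn had an interval of the EB RAD21 to IgG ratio above 1, which 16.5% of all ESC-only sites had. Each of the 19 ESC sites had at least 1 EB RAD21 read, but this alone is no sign of binding. The site 160.12 kb downstream of Mycn had 1 RAD21 and 3 IgG reads in EBs. The share of all ESC sites with an EB read was not formed.

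At Myc, which encodes the founding member of the family, the insulator site had 43 RAD21 reads in ESCs and 19 in EBs. The IgG libraries had 3 and 2 reads there. This corresponds to 3.14 and 2.45 RAD21 reads per 1000000 autosomal reads (RPM), an EB to ESC ratio of 0.783 (0.431 to 1.37). The RAD21 libraries of both cell types stood above their IgG libraries, and the interval of the ratio between the cell types spanned 1. The ESC score of 270.29 was at or above that of 95% of ESC sites, and the EB score of 134.11 at or above that of 69.4% of EB sites. The CTCF match scored 24.02 bits, and the summits lay close to it, 25.5 bp downstream of its centre in ESCs and 18.5 bp upstream in EBs.

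The fixed insulator region from 1 to 5 kb upstream of Myc, which contains the listed peaks of both cell types, held 85 RAD21 and 25 IgG reads in ESCs. In EBs it held 52 and 16. Within 250 bp of the ESC summit lay 43 of these RAD21 reads in ESCs and 19 in EBs. The peaks had been called against the same IgG libraries, so RAD21 above IgG in this region is no independent check of them. The RAD21 to IgG ratio was 3.12 (1.98 to 5.09) in ESCs and 2.91 (1.64 to 5.46) in EBs, and the EB to ESC ratio of RAD21 was 1.08 (0.752 to 1.55). The EB peak reached further towards Myc, with a width of 1398 bp beside 922 bp in ESCs. From 250 to 1000 bp on the Myc side of the ESC summit there were 8 RAD21 reads in ESCs and 19 in EBs, a ratio of 4.21 (1.76 to 11.1), with 9 and 5 IgG reads. On the distal side over the same distance the reads were 13 and 5, a ratio of 0.681 (0.19 to 2.04). These side windows were chosen after the peaks had been seen.

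The other 3 sites of the locus were listed in ESCs alone and were weak. The site 10.13 kb upstream of Myc (chr15:61806506-61807247) had 18 RAD21 reads in ESCs and 2 in EBs, beside 3 and 4 IgG reads, a ratio of 0.197 (0.0222 to 0.822). The site 9.53 kb downstream of the start, beyond the end of Myc (chr15:61825554-61826733), had 13 and 1 RAD21 reads beside 2 and 2 IgG reads, a ratio of 0.136 (0.00321 to 0.907). At both sites the EB RAD21 count did not exceed the EB IgG count.

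Pvt1 held a single site, in an intron (chr15:61937986-61938524), 121.33 kb downstream of the Myc start. It had 18 RAD21 reads in ESCs and 2 in EBs, beside 1 and 1 IgG reads, a ratio of 0.197 (0.0222 to 0.822). Within 500 bp of the summit the ratio was 0.373 and its interval spanned 1. No EB site was listed within Pvt1. Over the whole Pvt1 body of 340110 bp the RAD21 to IgG ratio was 1.12 (1.06 to 1.19) in ESCs and 1.04 (0.959 to 1.13) in EBs. These values were close to those of the Myc and Pvt1 locus outside all sites, which includes much of this body. There the ratio was 1.09 (1.05 to 1.13) in ESCs and 1.01 (0.962 to 1.07) in EBs. Beyond the intronic site the next ESC summit on chromosome 15 lay 706 kb away, a gap that 3.49% of the gaps between neighbouring ESC sites reached, with a median gap of 74.7 kb. In EBs the next summit after the insulator lay 1360 kb away, a length reached by 1.78% of gaps, with a median of 114 kb.

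At Mycn, whose product is the family member best known from embryonic progenitors and neuroblastoma, the ESC sites fell into a group around the gene, a group far downstream and a few sites far upstream. Inside the gene, a site in the Mycn intron was shared. Its ESC peak (chr12:12945335-12946388) had 30 RAD21 reads in ESCs and 10 in EBs, beside 1 and 1 IgG reads, a ratio of 0.591 (0.258 to 1.24). The EB summit lay 764 bp further into the gene, at 3.54 kb from the start, where ESCs had 7 and EBs 11 RAD21 reads and no IgG read was found. The ratio there was 2.78 (0.986 to 8.47), so the intervals spanned 1 at both summits. Divided by the ratio of random windows of like GC content it was 3.26 (1.15 to 9.91) at the EB summit and 0.947 (0.413 to 1.99) at the ESC summit. The ESC summit lay beside a CTCF match of 17.78 bits that passed only the looser threshold of 1e-04. It is shown on its strand, the minus strand of chr12:12945932-12945981, with the match in capitals.

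Mycn intron site: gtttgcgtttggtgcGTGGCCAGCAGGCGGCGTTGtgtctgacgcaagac

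Just upstream of Mycn, an ESC-only site 1.51 kb from the start (chr12:12949101-12950639) was the widest of the family, at 1539 bp. It had 18 RAD21 reads in ESCs and 8 in EBs, beside 4 and 0 IgG reads. The exact interval of the EB RAD21 to IgG ratio began at 1.53. The EB to ESC ratio was 0.787 (0.296 to 1.90), so that its absence from the EB list was not matched by a difference beyond counting error.

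The 7 distal sites of Mycn were all ESC-only and had between 1 and 6 EB RAD21 reads. The site 160.12 kb downstream of the start (chr12:12787920-12789149) had the highest score of the locus, 184.46, and a CTCF match of 22.36 bits. It had 33 RAD21 reads in ESCs and 1 in EBs, beside 2 and 3 IgG reads, the lowest ratio of the family at 0.0537 (0.00132 to 0.321). A further 3 ESC-only sites lay within the next 22.1 kb towards the gene. The site 153.04 kb downstream, in an intron of the noncoding gene Gm17337, had 22 and 1 RAD21 reads, a ratio of 0.0805 (0.00195 to 0.498). The site 137.99 kb downstream had 24 and 1 RAD21 reads, a ratio of 0.0738 (0.0018 to 0.453). The site 154.72 kb downstream had 15 and 3, and its interval spanned 1.

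On the upstream side of Mycn, the site 67.68 kb from the start (chr12:13016061-13016941) had 35 RAD21 reads in ESCs and 6 in EBs, a ratio of 0.304 (0.104 to 0.73). The site 45.63 kb upstream had 25 and 1, a ratio of 0.0709 (0.00173 to 0.433). The site 143.66 kb upstream had 20 and 2, a ratio of 0.177 (0.0201 to 0.729). The 3 sites had 9 IgG reads in ESCs and 4 in EBs. RAD21 reads of the Mycn locus outside all sites were also lower in EBs, with an EB to ESC ratio of 0.648 (0.603 to 0.696), while IgG reads gave 0.825 (0.765 to 0.888). Scaled by the reads of each locus outside sites, 7 of the 20 sites had an interval below 1, and the sites 67.68 kb and 143.66 kb upstream of Mycn and 9.53 kb downstream of Myc no longer did. The part of this wider difference in the values of single sites was not tested. No share over all autosomal sites was formed for the scaling by locus reads.

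At Mycl1, which encodes the MYCL protein, 5 of the 7 distinct sites had ratios whose intervals spanned 1. The shared site 159.58 kb downstream of the start (chr4:122832008-122832856) had 29 RAD21 reads in ESCs and 22 in EBs, beside 8 and 1 IgG reads. The EB to ESC ratio was 1.34 (0.736 to 2.42), the only one above 1 at the ESC summits of the 3 shared sites. The EB peak there had the highest EB score of the family, 144.81. Its CTCF match scored 19.92 bits.

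The only EB-only site of the family lay 10.37 kb upstream of Mycl1 (chr4:122662054-122662862), with 14 RAD21 reads in ESCs and 19 in EBs, beside 5 and 4 IgG reads. The EB to ESC ratio was 2.40 (1.14 to 5.18). In EBs the RAD21 to IgG ratio was 4.25 (1.41 to 17.2), and in ESCs it was 2.57 (0.876 to 9.13). The ESC reads passed the Poisson threshold at this site, as they did at 16.6% of all EB-only sites, and in 2 of the 3 thinned draws. An ESC-only site lay 2.81 kb nearer to the gene, with its summit 7.55 kb upstream of the start (chr4:122665007-122665597), with 18 RAD21 reads in ESCs and 4 in EBs and a ratio of 0.394 (0.0969 to 1.20). The windows around both summits held the E-box letters CACGTG, the binding sequence of MYC and MAX dimers themselves, which are shown with 15 flanking bases on the plus strand and the E-box in capitals.

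Mycl1, 7.55 kb upstream of the start, chr4:122665211-122665246, plus strand: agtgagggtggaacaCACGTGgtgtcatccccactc
Mycl1, 10.37 kb upstream of the start, chr4:122662605-122662640, plus strand: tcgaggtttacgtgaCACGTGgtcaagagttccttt

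Of all ESC sites 4.49% and of all EB sites 3.34% held these letters within 150 bp of the summit, as did 2.89% of random windows. No other site of the family did.

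Of the remaining Mycl1 sites, the nearest to the gene had its summit 0.11 kb upstream of the start (chr4:122672253-122673061) and a CTCF match of 21.35 bits. It had 15 RAD21 reads in ESCs and 6 in EBs, beside 0 and 1 IgG reads, a ratio of 0.709 (0.225 to 1.93). The exact interval of the ESC RAD21 to IgG ratio began at 3.30. The site 84.85 kb upstream (chr4:122587534-122588541) had the strongest CTCF match of all sites, 24.85 bits. It had 25 RAD21 reads in ESCs and 4 in EBs, a ratio of 0.283 (0.0717 to 0.821), the only one at Mycl1 with an interval below 1. After scaling by GC content that interval spanned 1 (0.0921 to 1.05). The sites 51.06 kb upstream and 87.46 kb downstream had ratios of 0.759 (0.306 to 1.73) and 0.492 (0.143 to 1.38).

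CTCF matches were unevenly spread over the loci. At the stricter threshold 7 of the 19 ESC sites had a match within 150 bp of the summit, beside 44.4% of all autosomal ESC sites. They were 5 of the 6 Mycl1 sites, 1 of the 9 Mycn sites and 1 of the 4 sites of Myc and Pvt1. Of the 4 EB sites 2 had one, beside 36.4% of all autosomal EB sites. At the looser threshold of 1e-04 the count was 12 of 19, beside 85.7% of all autosomal ESC sites. The 7 without any match were 5 sites of Mycn and 2 of Myc and Pvt1. In 11 of the 12 sites with a match the ESC summit lay on the downstream side of the motif as printed, with a median distance of 49.5 bp from its centre, beside 81.1% and 46.5 bp over all ESC sites with a match. Of the 4 EB sites 3 had a match at the looser threshold, beside 80.1% of all autosomal EB sites. CTCF itself was not measured in the libraries used here.

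Most CTCF matches in the loci lay outside the listed sites. The 3 loci held 21 matches at the stricter threshold, and 14 of them had no listed summit within 150 bp. Of these, 9 lay near Mycl1, 3 near Myc and Pvt1 and 2 near Mycn. The threshold passes 1e-05 of positions in random windows. The loci span 792706 bp at Myc and Pvt1, 405819 bp at Mycn and 406834 bp at Mycl1. Matches without a site are therefore expected by chance, and their expected number was not formed. Whether the 14 matches were bound by CTCF was not tested. The highest-scoring match of all, 26.51 bits at 82.83 kb upstream of Mycl1, had 9 RAD21 reads in ESCs and 2 in EBs within 250 bp, beside 5 and 1 IgG reads. The most ESC RAD21 reads at a match without a site were 14, at 97.15 kb upstream of Mycl1.

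Besides CTCF, 6 fixed letter patterns were searched within 150 bp of the summits on both strands, and 7 of the 20 sites held at least 1, beside 15.8% of all distinct autosomal sites. The pattern TCAAGGTCA, bound by the pluripotency factor ESRRB, occurred at the site 1.51 kb upstream of Mycn and at 0.742% of all ESC sites and 0.648% of random windows. The octamer ATGCAAAT, bound by OCT4 and its relatives, occurred at the site 137.99 kb downstream of Mycn and at 1.8% of all ESC sites and 2.71% of random windows. The forkhead pattern TGTTTAC occurred 9.53 kb downstream of Myc and 154.72 kb downstream of Mycn, and at 4.12% of all ESC sites and 4.55% of random windows. The KLF pattern GGGTGTGG occurred 143.66 kb upstream of Mycn and at 2.12% of all ESC sites and 1.76% of random windows. The GATA pattern AGATAAG occurred at none of the 20 sites. Around the EB summit of the shared Mycl1 site, 159.66 kb downstream of the start, the octamer was found as well. Of the 5 Mycn sites without a CTCF match, 3 held 1 of these patterns, beside 17.4% of all autosomal ESC sites without a match. The sites 1.51 kb upstream and 137.99 kb downstream of Mycn are shown on the strand of the pattern, which is in capitals.

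Mycn, 137.99 kb downstream of the start, chr12:12810625-12810662, minus strand, octamer: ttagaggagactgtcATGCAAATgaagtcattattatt
Mycn, 1.51 kb upstream of the start, chr12:12950068-12950106, plus strand, ESRRB pattern: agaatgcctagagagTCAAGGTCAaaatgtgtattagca

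The gene starts were compared next, because reads within 1 kb of a start were not used to choose the genes. At the Myc start (chr15:61816946-61821929, plus strand) there were 19 RAD21 reads in ESCs and 20 in EBs, beside 2 and 5 IgG reads. At the Mycn start (chr12:12942902-12948720, minus strand) the RAD21 reads were 28 and 15, beside 1 and 1 IgG reads. At the Mycl1 start (chr4:122672895-122679728, plus strand) they were 31 and 12, beside 6 and 4. At the Pvt1 start (chr15:61869542-62209651, plus strand) they were 15 and 7, beside 14 and 2. The windows of Mycn and Mycl1 overlapped a listed ESC site, whereas those of Myc and Pvt1 held no listed site. Listed sites had been called against the same IgG library, so RAD21 above IgG in ESCs at the Mycn and Mycl1 starts was in part set by the peak calls.

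RAD21 exceeded IgG in ESCs at the starts of Myc, Mycn and Mycl1, with ratios of 8.73 (2.11 to 77.3), 25.7 (4.25 to 1050) and 4.75 (1.95 to 13.9). With reads left at their 5 prime end the Mycn ratio was 8.27. An interval above 1 in ESCs was found for 8.27% of autosomal protein-coding genes. In EBs the interval lay above 1 at Myc, 3.58 (1.30 to 12.2), and Mycn, 13.4 (2.07 to 565), and for 8.34% of protein-coding genes. At Mycl1 the EB ratio was 2.69 (0.814 to 11.4). At Pvt1 RAD21 did not differ from IgG beyond counting error, with ratios of 0.985 (0.443 to 2.20) in ESCs and 3.13 (0.597 to 30.9) in EBs. With a window of 500 bp on each side both Myc intervals spanned 1, at ratios of 4.59 and 3.58. With 1 to 6 IgG reads at the starts of the protein-coding members, these ratios are imprecise.

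Between the cell types no start differed beyond counting error. The EB to ESC ratio of RAD21 was 1.87 (0.945 to 3.69) at Myc, 0.949 (0.471 to 1.84) at Mycn, 0.827 (0.285 to 2.15) at Pvt1 and 0.686 (0.321 to 1.37) at Mycl1. Of all protein-coding starts 3.59% had an interval below 1 and 5.69% above 1. The windows had GC contents of 52.9% to 59.7%. The random windows nearest in GC content averaged 52.8% to 56.2%, lower than the starts by up to 3.5 percentage points at Mycl1, and had EB to ESC ratios of 0.685 to 0.701 for RAD21. At Myc, with a GC content of 57.0%, they averaged 55.6%. Divided by the ratio of these windows the Myc ratio became 2.68 (1.36 to 5.31) and passed 1, while the other 3 did not. IgG reads at the Myc start were likewise 2 in ESCs and 5 in EBs, a ratio of 4.55 (0.744 to 47.7), so that the direction was the same in the control libraries.

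**Figure D3:**
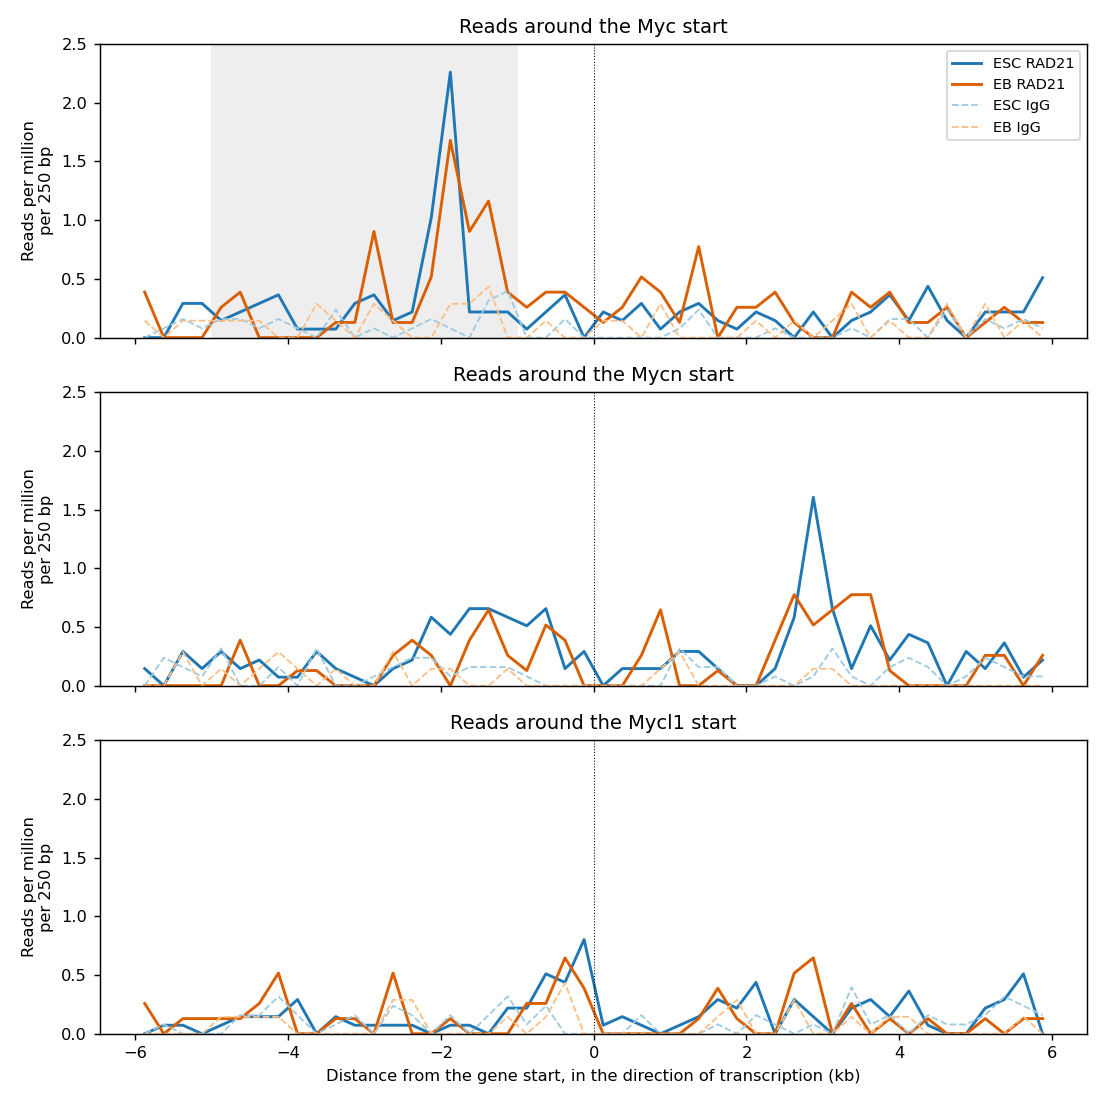
Reads per 1000000 autosomal reads in 250 bp bins from 6 kb upstream to 6 kb downstream of the Myc, Mycn and Mycl1 starts, for RAD21 (solid lines) and IgG (dashed lines) in ESCs (blue) and EBs (orange). Grey marks the insulator region from 1 to 5 kb upstream of Myc, where the RAD21 lines of both cell types peak. At Mycn the ESC line peaks in the intron and the EB line is flatter.

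Over the gene bodies, RAD21 exceeded IgG at Myc in ESCs, 3.39 (1.81 to 6.83), and in EBs, 2.76 (1.41 to 5.81), with 48 and 37 RAD21 reads. Over Mycn the RAD21 reads were 92 and 43 and the ratios 2.82 (1.85 to 4.41) and 7.70 (3.06 to 24.9). The higher EB ratio rested on 5 IgG reads in EBs beside 30 in ESCs. Over Mycl1 the RAD21 reads were 60 and 24, and the ratio was 1.72 (1.10 to 2.73) in ESCs and 2.15 (0.99 to 5.03) in EBs. The Mycn body held peaks of both lists, and the Mycl1 body overlapped a listed ESC peak. Those peaks had been called against the same IgG libraries, so RAD21 above IgG there was in part set by the peak calls. The Myc body held no listed site. No share over all gene bodies was formed. The interval of the EB to ESC ratio of RAD21 spanned 1 in the bodies of Myc, Mycn and Mycl1. In Pvt1 the ratio was 0.815 (0.762 to 0.872), beside 0.878 (0.816 to 0.945) for IgG.

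The partners and antagonists of the family were looked at in the same way, as a list of 11 genes. It held Max, the shared dimer partner, the MAX-binding repressors Mnt, Mga, Mxd1, Mxi1, Mxd3 and Mxd4, the related Mlx, Mlxip and Mlxipl, and Zbtb17, which encodes the MYC-interacting protein MIZ1. At none of the 11 starts did RAD21 exceed IgG beyond counting error in either cell type, beside the 8.27% and 8.34% of all protein-coding starts, so that a count of 0 is close to that background. At none did RAD21 differ between EBs and ESCs beyond counting error. Max had 12 RAD21 reads in ESCs and 5 in EBs, beside 7 and 3 IgG reads. The closest were Mnt and Zbtb17, each with 13 RAD21 and 4 IgG reads in ESCs, a ratio of 2.99 (0.923 to 12.6). Within 200 kb of these genes lay between 1 (Mxd4) and 12 (Mlx) ESC sites and between 1 (Mga) and 7 (Mlx) EB sites. Of the 11 genes, Mlx and Zbtb17 had more ESC sites than Mycn, and Mga alone had as few EB sites.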

How the data were processed

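RAD21-GFP and IgG chromatin immunoprecipitates of ESCs and EBs were sequenced, with 1 library per group, and samples were grouped by their labels. The authors deposited aligned 35 base reads on mm9, 1 line per read, which were used here as counts. The aligner is not given in the sources used here. No position and strand was repeated on the autosomes. The EB IgG reads end within a line on chromosome X and 7 broken ESC IgG lines were skipped, so reads were compared on autosomes only. The authors called peaks with MACS per library against the IgG library of the same cell type. The deposited peak score is -10 times the log10 of the p-value, with a limit that the study states in different ways, and the deposited summit height is a signal of piled-up reads that was not scaled between libraries.

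Genes were taken from GENCODE vM1. Reads were moved to the fragment centre (lengths 205 bp in ESCs and 195 bp in EBs) and counted within 250 bp of summits and 1 kb of gene starts. They were scaled to autosomal reads. Ratios were given with exact 95% Clopper-Pearson intervals of the share of reads in 1 library. Medians were formed with 1 read added to each count. The interval of a median came from the ranked values of the sites. Overlap of 1 bp made sites shared. A CTCF weight matrix of width 20 was learned on odd chromosomes for even ones and the reverse. GC content was matched with the nearest 1000 of 50000 random windows at least 2000 bp from any site. For equal depth, 400 bp windows were tested against a Poisson background. Scripts were tested on simulated data and used Python 3.11.15, NumPy 2.4.6, pandas 2.3.3, SciPy 1.17.1 and matplotlib 3.10.9.

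The genes, lists and tests were chosen with earlier results of these data known. Every site within 200 kb was counted. A site was described singly when its ratio interval lay on 1 side of 1, when it was among the 3 of highest score in its locus, when it was nearest to a gene start, or when it lay in the insulator region or a member gene. The other Mycl1 sites, and sites named for a letter pattern, were added to these. Alternatives concerned distance, score, overlap, window, read position, scaling, pseudocount, IgG subtraction and motif threshold. Scaling by GC content and by the reads of the locus was added after the data had been seen.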

Additional observations from a re-analysis of the deposited data

How the results depend on the processing

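With 1 library per group, counting error is the only error measured, and many sites had fewer than 10 EB reads, so ratios near 1 could not be told from it. Of 235 comparisons with an alternative over 46 results, 201 kept their direction and their side of 1, or stayed within the limit set for counts.

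The 19 ESC sites became 8 with a score of at least 100, and 11, 11 and 12 at equal depth. The 4 EB sites became 8 within 500 kb. Sites higher in ESCs were 6 instead of 10 after scaling by GC content and 13 when scaled to shared sites. In the latter scaling 0 sites were higher in EBs instead of 1. At the looser motif rate 12 instead of 7 ESC sites had a CTCF match, and within 100 bp 1 instead of 2 EB sites had one.

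With 500 bp on each side, the RAD21 to IgG ratio at the Myc start was 4.59 in ESCs and 3.58 in EBs, and both intervals spanned 1. The Myc EB to ESC ratio passed 1 after scaling by GC content, at 2.68. Values with intervals spanning 1 changed side at the Pvt1 start, to 1.12 with reads at their 5 prime end and 1.15 with 500 bp for RAD21 to IgG in ESCs, and to 1.06 with 500 bp and 1.21 by GC content for EB to ESC. The Mycn start changed to 1.36 by GC content. Site ratios that did so by GC content were 1.01 at 1.51 kb upstream of Mycn, 1.04 at the Myc insulator, and 1.01 and 1.22 at 51.06 kb and 0.11 kb upstream of Mycl1. Scaled by locus reads, the first was 1.22. The ratio at the Pvt1 intron was 0.373 with 500 bp around the summit, with an interval spanning 1. For 5 ratios at gene starts no value could be formed, because the IgG count was 0 in the smaller window or at the 5 prime ends. The cause of these changes was not tested.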

Other observations

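Of the 14 CTCF matches without a listed site in the 3 loci, summed reads within 250 bp were 98 RAD21 reads in ESCs and 33 in EBs, beside 46 and 19 IgG reads, with windows counted again where matches lay close together. A pair of matches 87.75 kb and 87.57 kb upstream of Mycl1, on the minus strand, scored 24.3 and 22.83 bits and had 12 and 9 ESC RAD21 reads in overlapping windows, and 0 EB RAD21 reads, a count that allows up to 3. They lay 2.85 kb and 2.67 kb from the listed ESC site with the match of 24.85 bits, which is on the plus strand.

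As protein-coding neighbours in the Mycl1 locus, the annotation lists Ppt1, Cap1, Mfsd2a, Trit1, Bmp8b, Gm17244, Oxct2b, Ppie, Hpcal4 and Nt5c1a. Around Mycn it lists no protein-coding gene other than Mycn and the ribosomal protein pseudogene Rpl36-ps3, which it labels as protein-coding.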
